A study of Mus musculus with 26 samples.

Results

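The genes described here are 8 mouse genes whose transcripts were less abundant in the left ventricle of castrated than of sham-operated males in both genotypes of the study: Dpep1, Tesc, Penk, Tnni2, Helt, Brd7, Fxr2 and Pptc7. They were chosen from the measured values, as genes with a lower level after castration at an adjusted p below 0.05 in wild-type and in gene-trap mice. Of 47642 genes with counts, 12291 passed the filter on low counts, 11 of these met both conditions (0.0895%), and 8 of the 11 are described. All 8 passed the filter.

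Frozen left ventricles of male mice aged 40 days were profiled by 3′ end RNA sequencing, which reads a tag near the end of each transcript. The mice carried UtyGt(XS0378)Wtsi, a gene trap inserted into the fourth intron of Uty on the Y chromosome, or were wild-type animals of the isogenic strain C57BL/6.Y<129P2>. Surgery, castration or a sham operation, took place when the pups were about 10 days old. The 26 libraries were 6 wild-type sham, 6 gene-trap sham, 7 wild-type castrated and 7 gene-trap castrated. All mice therefore shared the C57BL/6.Y<129P2> background, and all had surgery before puberty. The labels name each library by group and number and do not say how animals were pooled or assigned, so every p-value here measures the spread between libraries.

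Castration removes the testes, the main source of androgens in males. Androgens enter cells and bind the androgen receptor, a transcription factor that recognises short inverted repeats in DNA. Cardiomyocytes express this receptor, and circulating androgens are known to influence heart mass, contractile proteins and calcium handling. Uty encodes a relative of the histone demethylase Kdm6a (Utx).

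The 8 genes have unrelated roles. Dpep1 encodes a membrane-anchored dipeptidase that cleaves leukotriene D4 and the cysteinyl-glycine released from glutathione. Tesc encodes tescalcin, an EF-hand calcium-binding protein that takes part in sodium-hydrogen exchange and inhibits the phosphatase calcineurin. Penk encodes proenkephalin, the precursor of the enkephalin opioid peptides, whose transcript is also known from rat heart. Tnni2 encodes the troponin I of fast skeletal muscle fibres. Helt encodes a basic helix-loop-helix repressor of the Hes and Hey type, known for its part in the mouse midbrain. Brd7 encodes a bromodomain subunit of the chromatin-remodelling complex PBAF, Fxr2 an RNA-binding paralog of the fragile X protein, and Pptc7 a mitochondrial phosphatase of the PP2C type that restrains mitophagy through BNIP3 and NIX.

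Because these genes were low together after castration, the sequence before their transcription starts is shown for 3 of them, and the share of promoter windows with 4 motifs was counted. The windows run from 250 bases before to 50 bases after each start, from RefSeq on GRCm38.p6, and 6 of the 8 genes matched an entry (Penk and Tnni2 are named only). The full androgen and glucocorticoid response element, an inverted repeat of AGAACA with 3 bases between the arms, was searched on both strands and stood in 3 of 32851 windows (0.00913%) while its single arm AGAACA stood in 19.0%. Neither stood in any of the 6 genes' windows, which says only that these letters are not in those windows. TATAAA stood in 13.6% of all windows and in none of the 6. The GC box GGGCGG stood in 35.7% of all windows and in 5 of the 6 genes, Tesc, Helt, Brd7, Fxr2 and Pptc7, but not in Dpep1. AGAACA is part of the full repeat, and the other motifs are not. The 250 bases before the start are given for Dpep1 and Tesc, which were the most abundant of the 5 genes with a difference over 2-fold in wild-type mice, and for Helt, whose levels correlated with those of Dpep1 within groups. Capitals mark GGGCGG on either strand. The stretch before Dpep1 is chr8:123185985-123186234 on the plus strand, that before Tesc chr5:118027493-118027742 on the plus strand and that before Helt chr8:46294672-46294921 on the minus strand.
Dpep1: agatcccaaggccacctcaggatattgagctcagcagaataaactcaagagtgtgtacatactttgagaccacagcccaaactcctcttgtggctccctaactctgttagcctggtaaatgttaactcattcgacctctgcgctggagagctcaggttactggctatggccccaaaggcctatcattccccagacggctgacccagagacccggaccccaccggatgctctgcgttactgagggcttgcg
Tesc: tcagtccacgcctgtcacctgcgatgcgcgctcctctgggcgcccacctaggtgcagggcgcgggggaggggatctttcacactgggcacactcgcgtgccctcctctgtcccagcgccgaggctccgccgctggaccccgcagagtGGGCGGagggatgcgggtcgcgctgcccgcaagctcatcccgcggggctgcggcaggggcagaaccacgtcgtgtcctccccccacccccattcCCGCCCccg
Helt: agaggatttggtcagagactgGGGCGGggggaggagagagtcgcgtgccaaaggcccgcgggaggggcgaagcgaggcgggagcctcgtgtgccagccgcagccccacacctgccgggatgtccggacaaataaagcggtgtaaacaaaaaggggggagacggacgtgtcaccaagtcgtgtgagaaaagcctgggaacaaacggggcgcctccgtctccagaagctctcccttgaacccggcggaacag
The Tesc window held GGGCGG once on each strand and the Helt window once, and the GC content over the full windows was 52.7% for Dpep1 and 74.7% for Tesc.

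Library depth was 6357485 to 9399241 gene counts, and a count of 0 allows a level of up to 0.311 to 0.480 CPM, taken as 3 counts. Levels are given in CPM, the count scaled to a common library size after TMM adjustment for composition. Uty checked the labels: its level was 6.56 to 11.8 CPM in the wild-type libraries and 0 to 1.06 CPM in the gene-trap libraries, with no overlap in either surgery group (log2 fold change -4.08 in sham and -3.83 in castrated mice, edgeR adjusted p = 3.69e-07 and 5.72e-06). The 6 cardiomyocyte markers (Myh6, Tnnt2, Tnni3, Actc1, Myl2, Ryr2) summed to 29718 to 55460 CPM. Of the 5 atrial markers Bmp10 was at 0 in all 26 libraries, while Nppa, Myl7, Myl4 and Sln were detected in each, with means of 276, 45.1, 38.1 and 15.5 CPM. The wild-type sham libraries differed on average in base composition. Their slope of log2 level on the GC content of transcript ends was 0.24 ± 0.13 per 10 percentage points (SD, n = 6). It averaged -0.06, -0.13 and -0.02 in gene-trap sham, wild-type castrated and gene-trap castrated mice. The ranges overlapped: slopes were 0.04 to 0.43 in wild-type sham libraries and reached 0.08, 0.07 and 0.26 in the other groups, in that order. The share of reads that did not align uniquely was 45.9% to 46.8% in gene-trap castrated replicates 1 to 4 and 41.9% to 45.9% in the other libraries. These 4 libraries also stood apart on the second principal component of log2 CPM, which held 10.4% of the variance. They lay at -39.7 to -28.1 on it and all other libraries at -11.9 to 19.5. What set them apart was not tested. In whole ventricle, fewer cells of a type and less RNA per cell cannot be told apart.

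Dpep1 had the largest castration difference of the 8 genes in wild-type mice, and it was also lower in gene-trap than in wild-type sham mice. It lies at chr8:123186242-123201812 (GRCm38, plus strand, up to 11 exons). In wild-type sham ventricles its level ran from 53.4 over a median of 71.9 to 93.8 CPM, and in wild-type castrated ventricles from 12.4 over 15.95 to 40.4 CPM. In gene-trap sham ventricles it ran from 27.4 over 35.8 to 52.4 CPM, and in gene-trap castrated ventricles from 11.2 over 15.95 to 21.6 CPM. Every sham library was thus above every castrated library of its own genotype, and every wild-type sham library was above every gene-trap sham library. The group means were 73.4 ± 16.05, 37.7 ± 8.25, 20.03 ± 9.51 and 16.2 ± 4.13 CPM in wild-type sham, gene-trap sham, wild-type castrated and gene-trap castrated mice (SD, n = 6, 6, 7 and 7). The log2 fold change of castration was -1.87 (SE 0.213) in wild-type and -1.21 (SE 0.215) in gene-trap mice. Castration chose the gene, so these values are given with no test. Wild-type castrated replicate 5 stood above the other 6 libraries of its group, which reached 21.8 CPM, and without it the change in wild-type mice was -2.14. Over all libraries, with each library's trend on GC content removed, that change was -1.65.

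Tesc was the most abundant of the 5 genes whose castration difference exceeded 2-fold in wild-type mice. It lies at chr5:118027743-118061878 (plus strand). Its level was 318 to 632 CPM with a median of 397 in wild-type sham mice, and 148 to 261 CPM with a median of 179 in wild-type castrated mice. In gene-trap mice it was 235 to 436 CPM with a median of 291 after sham surgery and 151 to 227 CPM with a median of 175 after castration. Sham and castrated libraries did not overlap in either genotype, while the gene-trap sham range reached into that of the wild-type castrated mice. The log2 fold change of castration was -1.12 (SE 0.156) in wild-type and -0.76 (SE 0.156) in gene-trap mice. With each library's trend on GC content removed, the change in wild-type mice was -0.80.

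**Figure D1:**
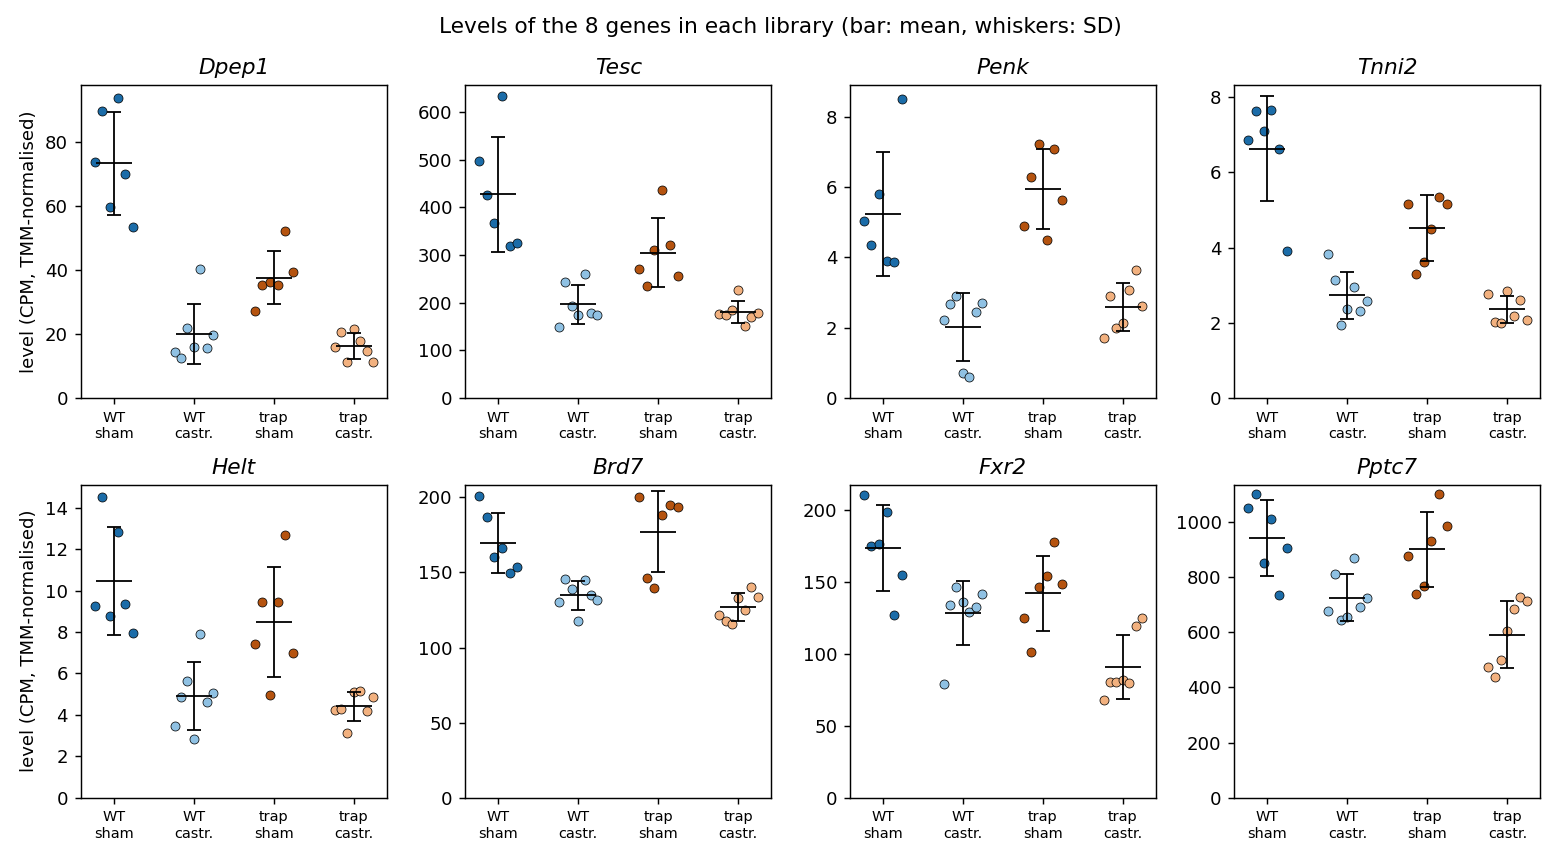
Level of each of the 8 genes in every library, in CPM after TMM scaling on linear axes that start at 0, for wild-type (WT) and gene-trap (trap) mice after sham surgery or castration (castr.). Points are libraries, horizontal bars group means and whiskers the SD (n = 6 per sham and 7 per castrated group). Dpep1 had separate ranges in wild-type sham (53.4 to 93.8 CPM) and gene-trap sham mice (27.4 to 52.4 CPM).

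Penk, Tnni2 and Helt were scarce transcripts. Penk lies at chr4:4133531-4138819 (minus strand), and its counts per library were 27 to 61 in sham and 5 to 28 in castrated ventricles. Its level in wild-type mice was 3.87 to 8.51 CPM (median 4.70) after sham surgery and 0.588 to 2.90 CPM (median 2.44) after castration. In gene-trap mice it was 4.48 to 7.23 CPM (median 5.97) and 1.71 to 3.65 CPM (median 2.63). No castrated library of either genotype reached any sham library on this scale. In plain CPM, without TMM scaling, that held within each genotype, but gene-trap castrated replicate 6 (3.90 CPM) lay above the lowest wild-type sham library (3.31 CPM). The log2 fold changes were -1.37 (SE 0.277) and -1.20 (SE 0.267). Wild-type castrated replicates 4 and 5 held 6 and 5 counts, the lowest of all libraries.

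Tnni2 lies at chr7:142441808-142444410 (plus strand). In wild-type mice its level was 3.91 to 7.65 CPM (median 6.97) after sham surgery and 1.93 to 3.83 CPM (median 2.59) after castration. In gene-trap mice it was 3.29 to 5.35 CPM (median 4.81) and 1.996 to 2.84 CPM (median 2.19). The surgery groups did not overlap within a genotype on this scale. In plain CPM wild-type sham replicate 6 (4.005 CPM) lay below the highest wild-type castrated library (4.26 CPM). The log2 fold changes were -1.27 (SE 0.191) and -0.93 (SE 0.198), and -0.93 in wild-type mice with the GC trend removed. Tnni2 is a marker of skeletal muscle, and other such markers differed in detection. The myosin heavy chain genes Myh1, Myh2 and Myh4 were near absent, at 0 in 22, 21 and 25 of the 26 libraries. Pvalb, Atp2a1, Actn3, Tnnt3 and Mybpc1 were at 0 in 1, 6, 18, 6 and 21 libraries. Myl1, Mybpc2, Mylpf and Tnnc2 were detected in every library, with means of 13.3, 12.2, 1.17 and 1.08 CPM. The 12 skeletal muscle markers summed to 31.8 to 43.6 CPM in wild-type sham, 19.0 to 34.1 in gene-trap sham, 21.2 to 30.6 in wild-type castrated and 20.9 to 38.2 in gene-trap castrated mice. Of the 4 that could be tested, 2 fell with castration in wild-type mice, where 21.3% of all genes fell. The part of these markers in the Tnni2 level was not tested.

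Helt lies at chr8:46292039-46294671 (minus strand). Its level was 7.95 to 14.5 CPM (median 9.29) in wild-type sham and 2.84 to 7.88 CPM (median 4.85) in wild-type castrated mice, which did not overlap. In gene-trap mice it was 4.94 to 12.7 CPM (median 8.42) after sham surgery and 3.12 to 5.14 CPM (median 4.28) after castration. There, the lowest sham library lay below 2 of the castrated libraries. The log2 fold changes were -1.09 (SE 0.211) and -0.94 (SE 0.215), and -0.75 in wild-type mice with the GC trend removed.

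Brd7, Fxr2 and Pptc7 are abundant transcripts with smaller differences. Brd7 (chr8:88331039-88362194, minus strand) stood at 149.6 to 201 CPM (median 163) in wild-type sham and 118 to 146 CPM (median 135) in wild-type castrated mice. These ranges were apart after TMM scaling but overlapped in plain CPM, where the lowest sham library was at 140.5 and the highest castrated library at 148 CPM. In gene-trap mice it stood at 139.9 to 200.4 CPM (median 191) and 115 to 141 CPM (median 125), where a single sham library, at 139.9 CPM, reached the castrated range. The log2 fold changes were -0.33 (SE 0.1004) and -0.48 (SE 0.1004). TMM factors were 0.850 to 1.03 in wild-type sham and 0.904 to 1.11 in wild-type castrated libraries. Scaling thus raised most wild-type sham levels and lowered most wild-type castrated levels. In plain CPM the wild-type differences of Brd7, Fxr2 and Pptc7 were smaller.

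Fxr2 (chr11:69632990-69653297, plus strand) was the member nearest the threshold, with the larger of its adjusted p-values at 0.0458. The nearest genes beyond it were Mdm2 and Pde4a, both at 0.0520, with log2 fold changes of -0.34 and -0.73 in wild-type and -0.55 and -0.66 in gene-trap mice. The Fxr2 level was 127 to 210.3 CPM (median 175) in wild-type sham, 78.9 to 146 CPM (median 134) in wild-type castrated, 102 to 178 CPM (median 148) in gene-trap sham and 67.8 to 125 CPM (median 80.5) in gene-trap castrated mice. Sham and castrated libraries overlapped in both genotypes. Gene-trap castrated replicates 1 to 5 lay at 67.8 to 82.0 CPM and replicates 6 and 7 at 119.6 and 125 CPM. The log2 fold changes were -0.44 (SE 0.152) and -0.65 (SE 0.152), but -0.12 in wild-type mice with the GC trend removed and -0.37 in gene-trap mice without castrated replicates 1 to 4.

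Pptc7 (chr5:122284365-122324281, plus strand) stood at 735 to 1101 CPM (median 958) in wild-type sham and 643 to 869 CPM (median 693) in wild-type castrated mice, which overlapped. In gene-trap mice it stood at 739 to 1101 CPM (median 903) after sham surgery and 437 to 729 CPM (median 603) after castration. The gene-trap ranges were apart after TMM scaling but overlapped in plain CPM, with a lowest sham value of 759 and a highest castrated value of 779 CPM. Gene-trap castrated replicates 1 to 4 held the 4 lowest values of all libraries, 437 to 603 CPM. The log2 fold changes were -0.38 (SE 0.128) and -0.61 (SE 0.128). They were -0.78 in wild-type mice with the GC trend removed and -0.32 in gene-trap mice without castrated replicates 1 to 4. The 3′ end of Pptc7 overlaps Rad9b on the other strand, and 42.6% of the 31-base words in its annotated ends also occur in other genes. Whether counting used strand is not given in these sources, so the Pptc7 level is uncertain to that extent, while Rad9b itself averaged 0.896 to 1.45 CPM per group.

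**Figure D2:**
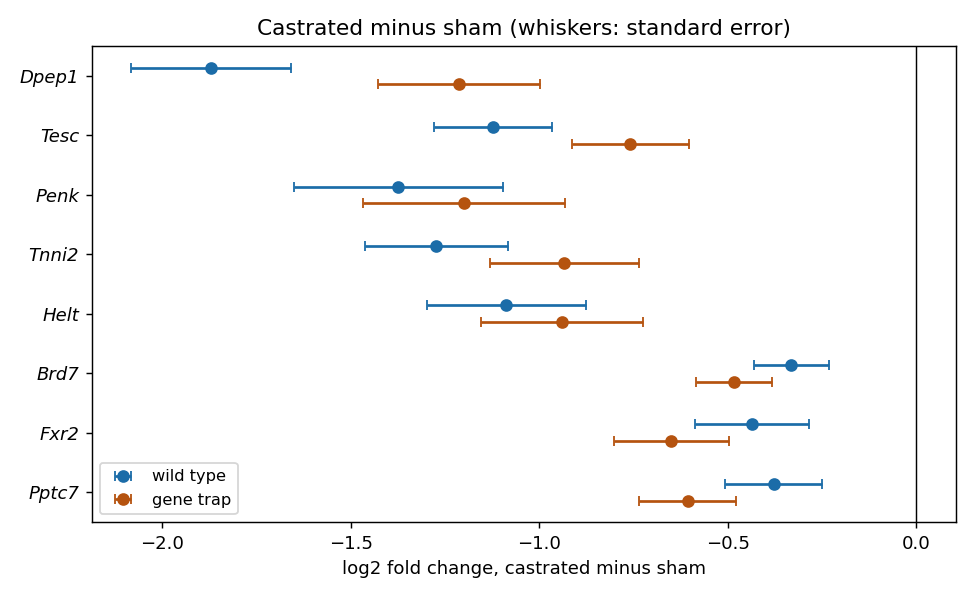
Log2 fold change of castrated over sham ventricles for the 8 genes in wild-type (blue) and gene-trap mice (orange). Points are edgeR estimates over all 26 libraries and whiskers their standard errors. Dpep1 had the lowest value in each genotype (-1.87 and -1.21), and Brd7 the value nearest 0 in wild-type mice (-0.33).

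Sham ranges lay above castrated ranges for 6 of the 8 genes in wild-type mice, as for 3.73% of the 12291 genes tested, and for 5 of the 8 in gene-trap mice, as for 0.439%. In plain CPM the counts were 4 in wild-type mice (Dpep1, Tesc, Penk and Helt, 2.16% of all genes) and 4 in gene-trap mice (Dpep1, Tesc, Penk and Tnni2, 0.179%). The threshold itself was passed downward by 21.3% of genes in wild-type and 0.252% in gene-trap mice. The rule used these contrasts, so the counts only describe the choice. The rule was not equally met under other treatments of the counts. With limma voom, or with a separate fit for each genotype, 3 of the 8 met it, and without gene-trap castrated replicates 1 to 4 the number was 0. Calls for castration in gene-trap mice also became fewer over all genes. They numbered 50 of 12291 in the main fit, 13 of 12291 with limma voom and 3 of 12693 without those 4 replicates. Leaving out 1 library at a time gave 0 to 8, with 0 without gene-trap sham replicate 5 or gene-trap castrated replicate 3. Fxr2 passed an adjusted p of 0.05 least often, in 32 of 37 alternatives in wild-type and 17 of 37 in gene-trap mice. All 16 log2 fold changes kept a negative sign under each of 37 alternatives. The rule chose the genes for this sign in the same libraries, so this too only describes the choice.

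The genotype comparison was not the contrast of the rule, but it uses the same libraries. The rule asked for high sham and low castrated levels in both genotypes. Its threshold was passed downward by 21.3% of genes in wild-type and 0.252% in gene-trap mice. The genotype differences and their p-values are therefore not independent of the choice. In sham mice Dpep1 was the one gene of the 8 called between genotypes, where 26.3% of all genes tested were called and 14.3% were called lower. At an unadjusted p below 0.05 there were 3, against 40.2% of all genes. Its level in gene-trap sham ventricles differed by -0.95 on the log2 scale (SE 0.160, adjusted p = 0.000775 by edgeR's quasi-likelihood test). The ranges of 6 against 6 libraries did not overlap, as was the case in this direction for 3.71% of genes, and they were also apart in plain CPM (3.15% of genes). The change was called in each of 22 alternatives and lay between -1.06 and -0.75, the latter with the GC trend removed. The authors' deposited table gives 0.53 for wild type over gene trap with an adjusted p of 0.0561. That sham table lists a mean above 0 for 414 genes whose 12 counts are all 0, and it therefore rests on more than the counts beside it.

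Tesc and Tnni2 were next in sham mice, with log2 fold changes of -0.47 (SE 0.177, edgeR adjusted p = 0.0558) and -0.54 (SE 0.203, adjusted p = 0.0566). Both missed the threshold with edgeR, and both passed it with DESeq2 (adjusted p = 0.0391 and 0.0438) and limma voom (adjusted p = 0.0321 and 0.0182), which called 29.7% and 35.1% of all genes. With the GC trend removed they were -0.19 and -0.24. Tesc overlapped between the genotypes, with 4 of 6 gene-trap libraries below every wild-type library, and Tnni2 with 5 of 6 wild-type libraries above every gene-trap library. Helt (-0.29, SE 0.214), Fxr2 (-0.27, SE 0.140), Pptc7 (-0.05, SE 0.125), Penk (0.21, SE 0.219) and Brd7 (0.08, SE 0.118) did not pass, at adjusted p-values of 0.321, 0.151, 0.786, 0.501 and 0.653.

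**Figure D3:**
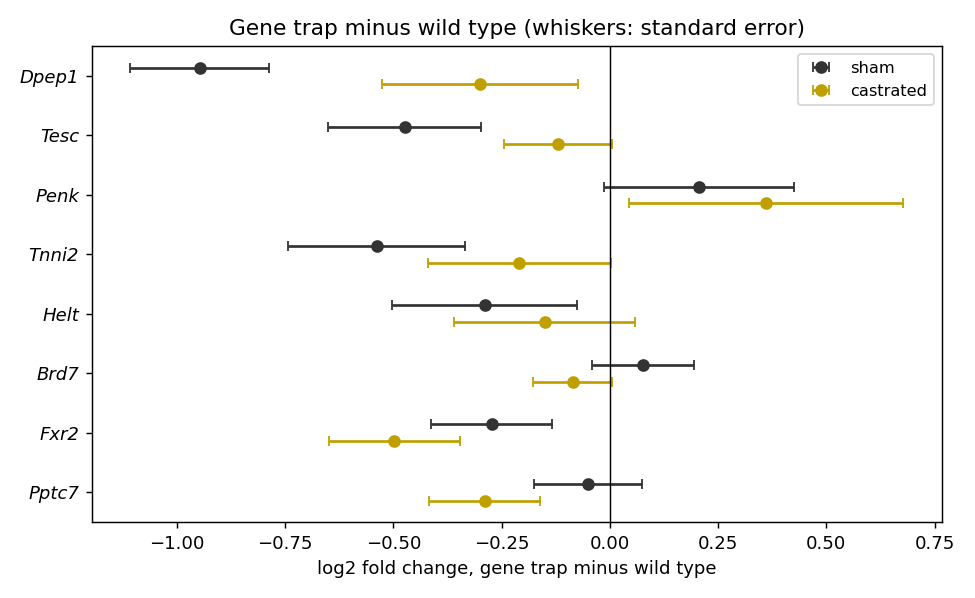
Log2 fold change of gene-trap over wild-type ventricles for the 8 genes, in sham (dark) and castrated mice (yellow). Points are edgeR estimates from 12 sham and 14 castrated libraries and whiskers their standard errors. The Dpep1 value in sham mice (-0.95) lay farthest from 0, against -0.30 in castrated mice.

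In castrated mice no gene of the 8 was called between genotypes by edgeR, where 0.205% of genes were. The gene-trap value was the lower for 7 of the 8, but the rule had chosen genes with low gene-trap castrated levels. At an unadjusted p below 0.05 there were 2, Fxr2 and Pptc7 (20.4% of all genes), while DESeq2 called 1 (4.56% of all genes) and limma voom 0 (2.38%). Fxr2 was nearest, at -0.50 on the log2 scale (SE 0.152, adjusted p = 0.1003 with edgeR). DESeq2 called it (adjusted p = 0.0440), and so did edgeR without wild-type castrated replicate 1 (adjusted p = 0.0449). In the authors' deposited table its log2 fold change for wild type over gene trap was 0.44, with an adjusted p of 0.0420. Without gene-trap castrated replicates 1 to 4 the value was -0.24. Pptc7 stood at -0.29 (SE 0.128, edgeR adjusted p = 0.212), and at -0.02 without the same 4 libraries. The values of Tesc, Tnni2, Helt and Brd7 lay between -0.21 and -0.09, and that of Penk was 0.36 (SE 0.316, adjusted p = 0.540). The Dpep1 difference was -0.30 (SE 0.226, adjusted p = 0.470), and -0.03 without wild-type castrated replicate 5. No gene of the 8 had separate ranges in the castrated genotypes, where 0.212% of all genes were higher in every wild-type library.

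The difference between the castration effects of the genotypes passed for none of the 8 genes with edgeR, against 20.1% of all genes. The choice of genes that were low in both genotypes bounds this difference. At an unadjusted p below 0.05 it counted 1 gene (36.4% of all genes), with DESeq2 0 (24.2%) and with limma voom 1 (25.6%) at the adjusted threshold. That gene was Dpep1, whose castration effect was smaller in gene-trap mice by 0.66 on the log2 scale (SE 0.301, edgeR adjusted p = 0.113), with 0.0205 by limma voom and 0.00684 without wild-type castrated replicate 5. Over 36 alternatives the Dpep1 value lay between 0.40 and 0.93 and always had the same sign. The other 7 genes had differences of 0.37 for Tesc, 0.34 for Tnni2, 0.17 for Penk, 0.15 for Helt, -0.15 for Brd7, -0.21 for Fxr2 and -0.23 for Pptc7, with edgeR adjusted p-values of 0.231 to 0.776. With the GC trend removed the Tesc and Tnni2 values were -0.01 and -0.06.

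Ordered by group mean, wild-type sham stood highest and gene-trap castrated lowest for Dpep1, Tesc, Tnni2, Helt, Fxr2 and Pptc7, with gene-trap sham next after the highest. For Dpep1 the first step of this order separated the libraries fully, whereas gene-trap sham and wild-type castrated overlapped through 1 castrated library, and the castrated genotypes overlapped. For Penk and Brd7 gene-trap sham stood first, with a mean of 5.94 ± 1.14 CPM for Penk (SD, n = 6) against 5.25 ± 1.76 CPM in wild-type sham mice (n = 6), a difference within the spread.

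Within groups, libraries with a high level of 1 of these genes tended to be high in some of the others. After removal of group means from log2 CPM, Pearson's r was positive for 22 of the 28 pairs, with a median of 0.272 over 26 libraries. Pairs of other genes were not counted in this way, and the permutation test below sets each pair only against no association. These values therefore cannot tell whether the genes described here varied together more than other genes did. Brd7 and Pptc7 were most alike (r = 0.742, permutation p = 3e-05, adjusted over 28 pairs 0.00084, Spearman's rho 0.784 with p = 2e-05). Dpep1 and Helt followed (r = 0.663, permutation p = 0.00065, adjusted 0.0091, rho 0.612 with p = 0.00146), then Fxr2 and Pptc7 (r = 0.624, p = 0.0016, adjusted 0.0149, rho 0.573 with p = 0.00578) by the same permutation test. Adjusted over the 28 pairs, the permutation p of rho was 0.00056, 0.0204 and 0.0540 for these pairs, so that Fxr2 and Pptc7 passed by r and not by rho. Without the 2 libraries farthest from the median of the first gene, these were 0.751, 0.628 and 0.643. Without gene-trap castrated replicates 1 to 4 they were 0.757, 0.656 and 0.599. The fourth pair past the adjusted threshold, Helt and Pptc7 (r = 0.512, permutation p = 0.0051, adjusted 0.0357), had a rho of 0.459 with an adjusted permutation p of 0.084. Penk had an r between -0.367 and 0.120 with each of the other 7. Library base composition moved with some of the genes: within groups the GC slope had an r of 0.643 with Tesc, 0.532 with Dpep1 and 0.526 with Tnni2. It was 0.494 with Helt, -0.399 with Penk, 0.320 with Brd7, 0.035 with Pptc7 and 0.007 with Fxr2. With the slope removed, Dpep1 and Tesc went from 0.414 to 0.112, Dpep1 and Helt from 0.663 to 0.544, and Dpep1 and Penk from -0.367 to -0.199.

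**Figure D4:**
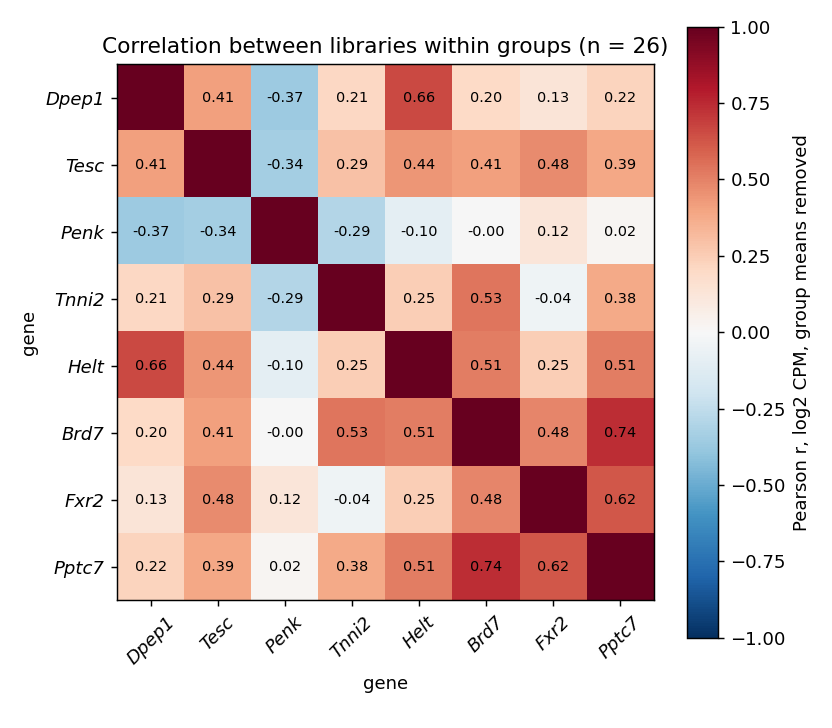
Pearson's r between the 8 genes over 26 libraries, computed on log2 CPM with each group's mean removed, and colour from -1 (blue) to 1 (red). Brd7 with Pptc7 (0.74) and Dpep1 with Helt (0.66) are the highest pairs, and Penk has no value above 0.12.

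Over all 26 libraries, group differences included, the genes most like Dpep1 among 8813 named genes with a mean of at least 5 CPM were Helt (r = 0.892), the nuclear pore gene Ndc1 (0.889) and Zmat2, which encodes a zinc-finger protein of the spliceosome (0.882). Those most like Tesc were Slc17a7 (0.946), which encodes the vesicular glutamate transporter VGLUT1, Fmc1 (0.906), which encodes an assembly factor of the mitochondrial ATP synthase, and Kiz (0.905), which encodes a centrosomal protein. Shared libraries and group means enter these values, and with group means removed they were 0.663, 0.714 and 0.754 for Dpep1 and 0.823, 0.814 and 0.806 for Tesc. After castration in wild-type mice, where 40.3% of all genes were called, Slc17a7 fell by 1.49 on the log2 scale (edgeR adjusted p = 0.000158). Its change of -0.83 in gene-trap mice did not pass (edgeR adjusted p = 0.0767). Slc17a7 was chosen by a likeness to Tesc that includes the group differences, so these values only describe that choice.

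Genes near the 8 on the chromosome were also followed. Of 21 annotated neighbours or overlapping genes, 13 could be tested for castration. In wild-type mice 2 fell and 1 rose, against 40.3% of all genes called. In gene-trap mice none was called, against 0.407% of all genes. With so few calls there, the count cannot tell whether neighbours shared the pattern of the 8. Fbxw8, 3087 bases beyond Tesc on the other strand, fell in wild-type mice by 0.69 on the log2 scale (SE 0.179, edgeR adjusted p = 0.00362). In gene-trap mice its value was 0.22, and the difference between genotypes was called (0.91, edgeR adjusted p = 0.0153). Chmp1a, 2452 bases beyond Dpep1 on the other strand, fell by 0.51 (SE 0.181, adjusted p = 0.0252), and Impad1, the nearest protein-coding gene to the right of Penk at 623665 bases, rose by 0.64 (SE 0.138, adjusted p = 0.00102). Its value in gene-trap mice was -0.19, and the difference between genotypes was called (-0.83, edgeR adjusted p = 0.00677). Gm20388, a long gene model that overlaps Dpep1 on its strand, was at 0 in all libraries.

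The wider families of the 8 genes were followed in 8 lists of other genes, of which 106 of 130 could be tested. In wild-type mice castration lowered 33 and raised 26 of them, where 21.3% of all genes fell and 19.1% rose, and the median log2 fold change of the 106 was -0.02, as over all genes. In gene-trap mice edgeR called none (0.407% of all genes), 19 passed an unadjusted p below 0.05 (17.6% of all genes), DESeq2 called 6 (4.14% of all genes with an adjusted p) and limma voom 0 (0.106%). Without wild-type sham replicate 4 the count in wild-type mice was 37.

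Troponins and tropomyosins moved in 1 direction in wild-type mice: 7 of 9 fell and none rose, with a median of -0.50 against -0.02 over all genes. The cardiac troponin C gene Tnnc1 fell by 0.54 (SE 0.120, edgeR adjusted p = 0.00127), from 1794 ± 367 to 1237 ± 129 CPM (SD, n = 6 and 7). The cardiac troponin T gene Tnnt2 fell by 0.58 (SE 0.162, adjusted p = 0.00574), and the tropomyosin genes Tpm1 and Tpm2 by 0.44 and 0.50. With the GC trend removed 2 of the 9 were called, both lower. Of 6 cardiomyocyte markers 5 fell as well, their summed level being 35086 to 55460 CPM in wild-type sham, 29718 to 47311 in wild-type castrated, 35112 to 41745 in gene-trap sham and 30739 to 49452 in gene-trap castrated mice, and 2 of the 6 are also in the troponin list. All 5 erythroid markers fell too, from a sum of 3339 to 7251 CPM to 1762 to 3901 CPM, with 1122 to 5208 CPM in gene-trap sham and 2113 to 6574 CPM in gene-trap castrated mice. The 5 atrial markers summed to 307 to 629 CPM in wild-type sham, 156 to 499.7 in wild-type castrated, 246 to 678 in gene-trap sham and 239.5 to 482 in gene-trap castrated mice. Of the 4 atrial markers tested 1 fell in wild-type and none in gene-trap mice by edgeR, with median log2 fold changes of -0.85 and -0.68. In wild-type mice 3 of 6 fibroblast markers rose, and of 5 endothelial markers 2 rose and 1 fell, with a median log2 fold change of -0.10. The endothelial sum was 826 to 1464 CPM after sham surgery and 1415 to 2447 CPM after castration. Most of this sum was Fabp4, with a mean of 1092 CPM over all libraries. Kdr, Pecam1, Cdh5 and Tie1 averaged 250, 113, 86.0 and 25.1 CPM. The part of these markers in the results on the lists and on the 8 genes was not tested.

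The Hes and Hey family, to which Helt belongs, moved mostly the other way: 5 of 7 rose and 1 fell in wild-type mice, with a median of 0.61. Bhlhe41, a repressor of the circadian clock, rose by 1.36 (SE 0.354, edgeR adjusted p = 0.00439), Hes1, the classic Notch target, by 0.75 (SE 0.222, adjusted p = 0.00920) and Bhlhe40 by 0.61 (SE 0.204, adjusted p = 0.0188). Hes6 fell by 0.35 (SE 0.122, adjusted p = 0.0223). With the GC trend removed 4 rose and none fell.

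Around Tesc, 8 of 18 genes of the tescalcin family, sodium-hydrogen exchange and calcineurin signalling fell and 3 rose. Rcan2, a calcineurin regulator, fell by 0.77 (SE 0.129, edgeR adjusted p = 0.00017), from 716 ± 154 to 419 ± 56.9 CPM (SD, n = 6 and 7). Slc9a8, a sodium-hydrogen exchanger of the Golgi, fell by 0.85 (SE 0.173, adjusted p = 0.000633) and Nfatc4, a calcineurin target, by 0.91 (SE 0.263, adjusted p = 0.00772). Ppp3ca, a catalytic subunit of calcineurin, rose by 0.56 (SE 0.130, adjusted p = 0.00175). With the GC trend removed 6 fell and 2 rose, and with the replicate number as a block 3 fell and 3 rose.

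Around Dpep1, the 14 genes of glutathione and leukotriene metabolism moved both ways, 3 lower and 4 higher. The glutathione synthetase gene Gss fell by 0.77 (SE 0.145, edgeR adjusted p = 0.000408), from 17.6 ± 2.65 to 10.3 ± 1.45 CPM, while the glutathione reductase gene Gsr rose by 1.67 (SE 0.320, adjusted p = 0.000519), from 5.95 ± 3.59 to 18.9 ± 3.88 CPM (SD, n = 6 and 7). Ggt5, which converts leukotriene C4 to the D4 that Dpep1 cleaves, fell by 0.89 (SE 0.269, adjusted p = 0.0104), and Chac1, which degrades glutathione, fell as well (adjusted p = 0.0133). Around Penk, 3 of 9 genes fell and 2 rose. The aminopeptidase gene Rnpep fell by 0.71 (SE 0.139, adjusted p = 0.000519), and Cpe, the carboxypeptidase that trims enkephalin intermediates, by 0.53 (SE 0.133, adjusted p = 0.00286). Ace, which can degrade enkephalins, fell by 0.54 (SE 0.172, adjusted p = 0.0141), and the cathepsin gene Ctsl rose by 0.81 (SE 0.204, adjusted p = 0.00314).

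Among 18 genes of PBAF and related chromatin-remodelling subunits, 5 fell and 4 rose. The shared subunit gene Smarcd3, which is active in heart muscle, fell by 0.97 (SE 0.176, edgeR adjusted p = 0.000322), from 113 ± 27.9 to 57.4 ± 10.6 CPM (SD, n = 6 and 7), and Smarcd1 by 0.62 (SE 0.167, adjusted p = 0.00461). The PBAF-defining subunit genes Arid2 and Pbrm1 rose by 0.70 (SE 0.156, adjusted p = 0.00133) and 0.50 (SE 0.132, adjusted p = 0.00421), whereas Brd7, also specific to PBAF, was lower. In the list of fragile X proteins and their partners 5 of 11 genes rose and none fell in wild-type mice. Fmr1, which encodes the fragile X protein itself, rose by 0.74 (SE 0.199, adjusted p = 0.00454) and Atxn2l by 1.09 (SE 0.251, adjusted p = 0.00159), and the stress-granule genes G3bp2 and G3bp1 rose by 0.43 and 0.72. With the GC trend removed 2 of the 11 rose, and the list's median went from 0.18 to -0.03. Among 20 PP2C phosphatases and mitophagy genes around Pptc7, 6 fell and 3 rose: Ppm1g fell by 0.74 (SE 0.116, adjusted p = 0.000142), Ilkap by 0.76 (SE 0.159, adjusted p = 0.000825) and Ppm1a by 0.39 (SE 0.093, adjusted p = 0.00209). Fbxl4, which restrains BNIP3-dependent mitophagy as Pptc7 does, rose by 1.58 (SE 0.383, adjusted p = 0.00222). In gene-trap mice no gene of the fragile X list was called, 7 of its 11 genes had a negative sign and the median was -0.14. The Fxr2 paralog Fxr1 came nearest there, at -0.49 (SE 0.127, edgeR adjusted p = 0.0564).

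**Figure D5:**
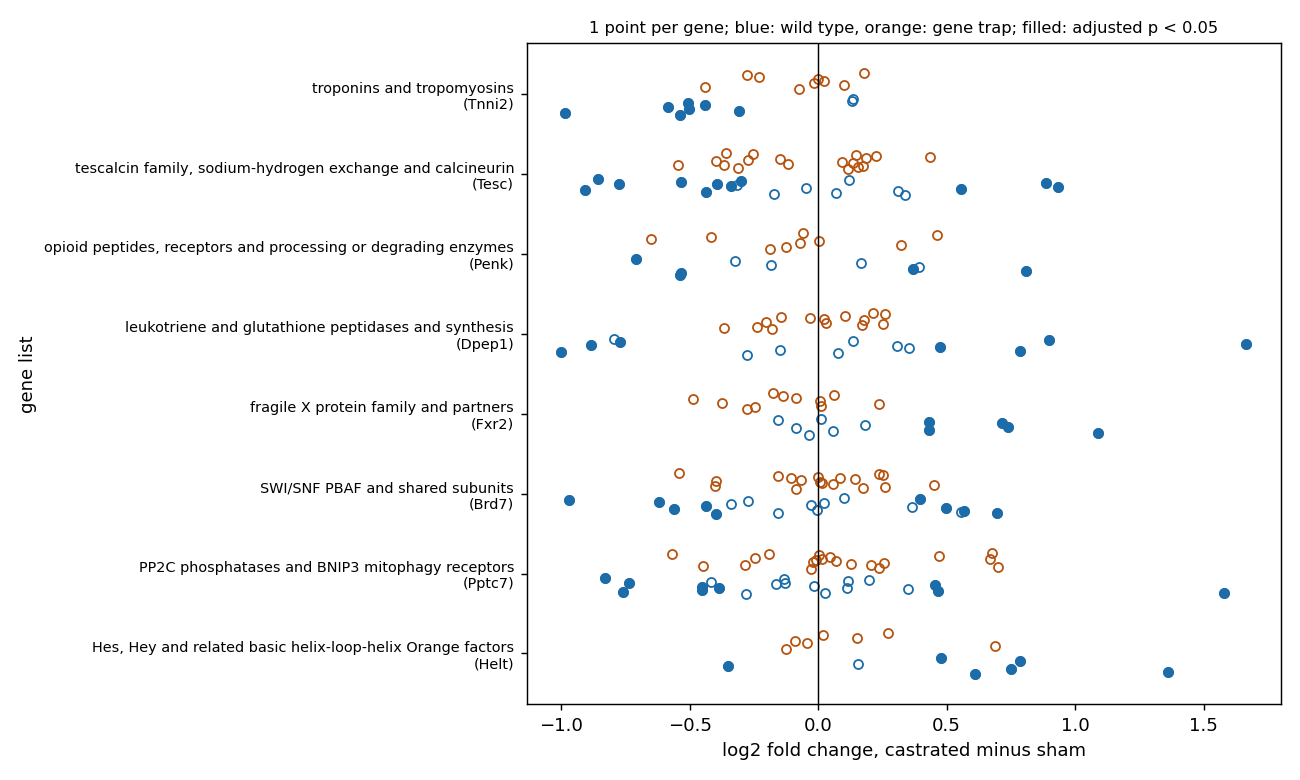
Log2 fold change of castrated over sham ventricles for each tested gene of 8 lists related to the members, in wild-type (blue) and gene-trap mice (orange). Filled points passed an adjusted p of 0.05 in edgeR. In wild-type mice 33 of 106 genes fell and 26 rose, and in gene-trap mice none passed.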

How the data were processed

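Left ventricles were profiled with Lexogen QuantSeq 3′ FWD libraries, per the labels' protocols. Per the submitters' processing notes the tools were featureCounts 1.6.0, STAR, DESeq2 1.22.2, CASAVA 1.4 and FastQC with mm10 or GRCm38, whose roles are not given. The authors deposited raw read counts per gene and library in a table for sham and a table for castrated mice. Beside the counts, each of the authors' deposited tables holds a mean normalised signal, a log2 fold change of wild type over gene trap, its standard error and a test score, and a p-value with its adjusted form, per the file headers.

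Groups were taken from the sample labels. Counts were joined by gene, filtered with filterByExpr, TMM-scaled and tested with edgeR 4.0.16 (R 4.3.3) by quasi-likelihood with Benjamini-Hochberg adjustment over all genes and a threshold of 0.05. Castration and the difference of castration effects were fitted on all 26 libraries, and the genotype comparisons on the libraries of each surgery. Alternatives used DESeq2 1.42.0, limma 3.58.1 voom, other scaling, filters and groupings, removal of each library's trend on GC content of the last 400 bases of transcripts, a replicate block and left-out libraries. The count that meets the rule under each alternative was added after the data had been seen. Correlations used log2 CPM with a prior count of 2 and 100000 permutations within groups. Reads without a unique alignment (41.9% to 46.8%), without a feature (2.66% to 4.62%) or ambiguous (0.277% to 0.358%) stayed out. With 3 counts as the limit for a count of 0, limits cover counting error only. The genes and lists were chosen with earlier results of these data known. Named genes were the 8 members, the 3 genes most like Dpep1 and Tesc, and the list genes with the smallest adjusted p-values.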

Additional observations from a re-analysis of the deposited data

Results flagged for a closer look

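In each of the 32 sets of 1 gene in 1 group, the gap of the highest or lowest library to its neighbour was set against the whole range, with a critical value of 0.625 for 6 and 0.568 for 7 libraries. A library stood apart in 3 sets, where chance gives about 1 in 20. Dpep1 in wild-type castrated replicate 5 was the highest of its group at 40.4 CPM (gap over range 0.664). Tnni2 in wild-type sham replicate 6 was the lowest of its group at 3.91 CPM (0.722). Fxr2 in wild-type castrated replicate 1 was the lowest of its group at 78.9 CPM (0.746).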

How the results depend on the processing

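No called value changed sign. Values that did not pass changed sign under some alternatives for Helt in both genotype comparisons, for Brd7 between sham genotypes, and for the difference of castration effects in all genes but Dpep1 and Brd7. The count of the 8 genes called between sham genotypes was 1, and 3 with DESeq2, limma voom, the replicate block or a fit to all 4 groups, and 1 to 3 when single libraries were left out. Between castrated genotypes it was 0, and 1 with DESeq2, with 0 to 1 for single libraries left out. For the difference of castration effects it was 0, and 1 with limma voom and with the GC trend removed together with the replicate block (Fxr2, -0.74), with 0 to 1 for single libraries left out. The called list genes in wild-type mice were 59, and 36 with the GC trend removed and the replicate block, 32 at an adjusted p of 0.01 and 37 to 63 for single libraries left out (37 without wild-type sham replicate 4). In gene-trap mice they were 0, and 6 with DESeq2, 1 with no filter on low counts, 5 with the replicate block, 4 with the GC trend removed, 6 with both, and 0 to 8 for single libraries left out. The genes that meet the rule were 8, and 3 with limma voom, 3 with the fit to 2 groups, 0 without gene-trap castrated replicates 1 to 4 and 0 to 8 for single libraries left out. Other settings also lost single genes. In wild-type mice Fxr2 passed an adjusted p of 0.05 in 32 of 37 alternatives and Pptc7 in 36, and the other members in all 37. The Fxr2 change there was nearest 0 with the GC trend removed (-0.12). Over all genes, castration calls in gene-trap mice were 50 in the main fit, 13 with limma voom and 3 without those 4 replicates. The causes were not tested. The labels do not say whether replicate numbers pair libraries. Of 36 same-numbered pairs 13 correlated above 0.1, and their median r was 0.02, against 0.01 for other pairs. By pair of groups this median ran from -0.22 for the 2 sham groups to 0.16 for gene-trap sham and gene-trap castrated mice. In the latter 4 of 6 pairs were above 0.1, and other pairs had a median of -0.03. With the replicate block Tesc and Tnni2 passed between sham genotypes (edgeR adjusted p = 0.0127 and 0.0247). Scarce transcripts limit Penk, Tnni2 and Helt, and at 5 to 120 counts per library small differences between genotypes were not detectable.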
